A study of Mus musculus with 12 samples.

Results

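The genes described here are the 44 collagen chain genes of the mouse that the array measured, out of 19938 genes with 1 symbol. They were chosen by name alone, as every gene whose symbol on the platform is Col, a number, the letter a and a number, with the transcript cluster of the highest mean over the 12 arrays standing for the gene. Of these, 11 code for chains of fibrillar collagens, 9 for chains of network-forming collagens, 6 for chains of collagen VI and 18 for other types. No measured value entered the choice of genes. A transcript cluster is the set of probes that the array summarises into a single value, and only Col6a5 and Col6a6 have a further cluster.

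Collagens are the main structural proteins of the extracellular matrix, and their chains wind into a triple helix in the endoplasmic reticulum before they are secreted. Collagen I, built from the chains of Col1a1 and Col1a2, makes up most of the organic matrix of bone, while collagens III and V join it in mixed fibrils. Collagen IV forms the sheet of basement membranes, and collagen VI forms beaded filaments close to the cell surface.

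MLO-Y4 is a cell line with osteocyte-like shape and markers, from long bone of a mouse that the labels give as 14 days old, and it is 1 line, not primary osteocytes. As background, the line was derived from mice that carry a viral large T antigen driven by the osteocalcin promoter, so all groups share this transgene. All cells were grown beforehand on flasks coated with rat tail type I collagen, which is a protein coat of another species. The cells were then kept for 48 h inside the bore of a superconducting magnet whose strong field has a steep gradient (LG-HMF), at μ-g, 1-g or 2-g, the 3 apparent gravity levels, or outside the magnet under normal gravity as control. By the study's methods the field was 12 T at μ-g and at 2-g and 16 T at 1-g, so that μ-g and 2-g share a field, whereas the control differs from every other group by the field too. Medium, sera and the set temperature and CO2 are given alike for all groups, but the control cells stood in an incubator outside the magnet and the others in its bore, and whether the conditions were equal in both places was not tested here. Each group has 3 arrays. The labels call these biological replicates, but the sources used here do not say whether they were separate cultures or separate runs of the magnet. The p-values therefore measure only the spread between these samples, which may be technical.

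Values are log2 intensities after the normalization RMA, and a difference between groups is a log2 fold change with its standard error (SE). Sets 1, 2 and 3 compare μ-g, 2-g and 1-g, in this order, with the control, and set 4 compares μ-g with 2-g. The 1-g group was also compared with μ-g (μ-g v.s. 1-g) and with 2-g (2-g v.s. 1-g). Genes rose or fell, in the words used here, where the p of limma, adjusted by Benjamini and Hochberg over all 19938 genes, was under 0.05. Array medians lay between 7.04 and 7.12, and Pearson's r between arrays of a group, across transcript clusters, was 0.996 to 0.998. Of the 44 collagen genes, 22 had a mean level over the 12 arrays above 7.50, the median of all genes, namely 8 fibrillar, 3 network, 3 collagen VI and 8 other genes. In such bulk RNA, fewer cells that express a gene and less of its RNA per cell cannot be told apart. With 3 arrays a group an exact two-sided permutation test could reach 0.1 at the lowest, and the number of arrays limits the precision.

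The label was checked against markers of osteocytes. Pdpn, which marks early osteocytes, lay at 12.1 to 12.4 on the 12 arrays, Gja1, the gap junction protein of osteocyte processes, at 11.9 to 12.4, and Cd44 at 10.5 to 10.8. Markers of mature osteocytes were low, with Dmp1 at 5.42 to 5.78, Mepe at 5.05 to 5.17 and Phex at 5.34 to 5.48, where the lowest value of the whole table was 4.51. Sost lay at 7.08 to 7.44 and Fgf23 at 6.67 to 7.06. None of the 8 measured osteocyte markers passed the limma test in any comparison, where 0% to 1.68% of all genes rose and 0% to 1.49% fell. At an unadjusted p of limma under 0.05 there were 0 to 1 a comparison in either direction. With the replicate number as a block Gja1 fell in set 4, where 3.9% of all genes did, and rose in 2-g v.s. 1-g, where 3.21% did. Bglap, also on the list of 9 markers, was not measured here, and the paper lists it among its genes of set 2.

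The collagen genes that passed the test were all higher at 2-g. In set 2, Col1a1 and Col3a1 of the fibrillar chains and Col6a1, Col6a2 and Col6a3 of collagen VI rose, which makes 5 of 44, while 1.68% of all genes rose. The same 5 genes rose in 2-g v.s. 1-g, where 1.26% of all genes rose. No collagen gene fell in set 2 or in 2-g v.s. 1-g, where 1.43% and 1% of all genes fell. These comparisons share the 2-g arrays, so they are not independent of each other. The paper lists Col3a1 and Col6a3 among its genes of set 2, at its limits of 1.5-fold and P under 0.05. In set 1, set 3 and μ-g v.s. 1-g, none of the 44 passed in either direction, while 0.436% of all genes rose and 0.386% fell in set 1, 0.176% rose and 0.145% fell in set 3, and 0% did either in μ-g v.s. 1-g.

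Col3a1, the chain of the collagen III homotrimer, showed the largest difference of the 44 genes between any pair of group means. Its log2 level was 8.14, 8.75 and 8.39 on control replicates 1 to 3, 8.23, 8.66 and 8.37 at μ-g, 8.16, 8.51 and 8.49 at 1-g, and 8.89, 9.21 and 9.20 at 2-g. Every 2-g array was above every other array, while the 3 other groups overlapped one another. The log2 fold change was 0.67 ± 0.16 (SE) in set 2, which is 1.59-fold, with an adjusted p of limma of 0.0437. It was 0.71 ± 0.16 in 2-g v.s. 1-g, or 1.63-fold, with an adjusted p of limma of 0.0414. Against control the other groups lay close, with −0.0035 at μ-g and −0.04 at 1-g.

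Col1a1, the chain that supplies most of the collagen I molecule, had log2 levels of 9.74, 10.01 and 9.80 on the control arrays, 9.85, 10.03 and 10.02 at μ-g, 9.80, 9.97 and 9.86 at 1-g, and 10.27, 10.21 and 10.30 at 2-g. Again all 2-g arrays were above all others. The log2 fold change was 0.41 ± 0.08 (SE) in set 2, or 1.33-fold, with an adjusted p of limma of 0.0177, and 0.38 ± 0.08 in 2-g v.s. 1-g with 0.0258. Its partner chain in the collagen I heterotrimer, Col1a2, did not show this. Col1a2 had the smallest range of group means of all 44 genes, 0.04 on the log2 scale, and its 12 arrays lay between 7.52 and 7.66. Its log2 fold change was 0.003 ± 0.046 in set 2 and 0.04 ± 0.05 in 2-g v.s. 1-g, with adjusted p of limma of 0.988 and 0.804. The mean of Col1a2 over the 12 arrays was 7.61, against 9.99 for Col1a1 and a median level of 7.50 over all genes. Whether its cluster has the signal to show a change was not tested. The difference between the responses of both chains was not tested either.

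**Figure D1:**
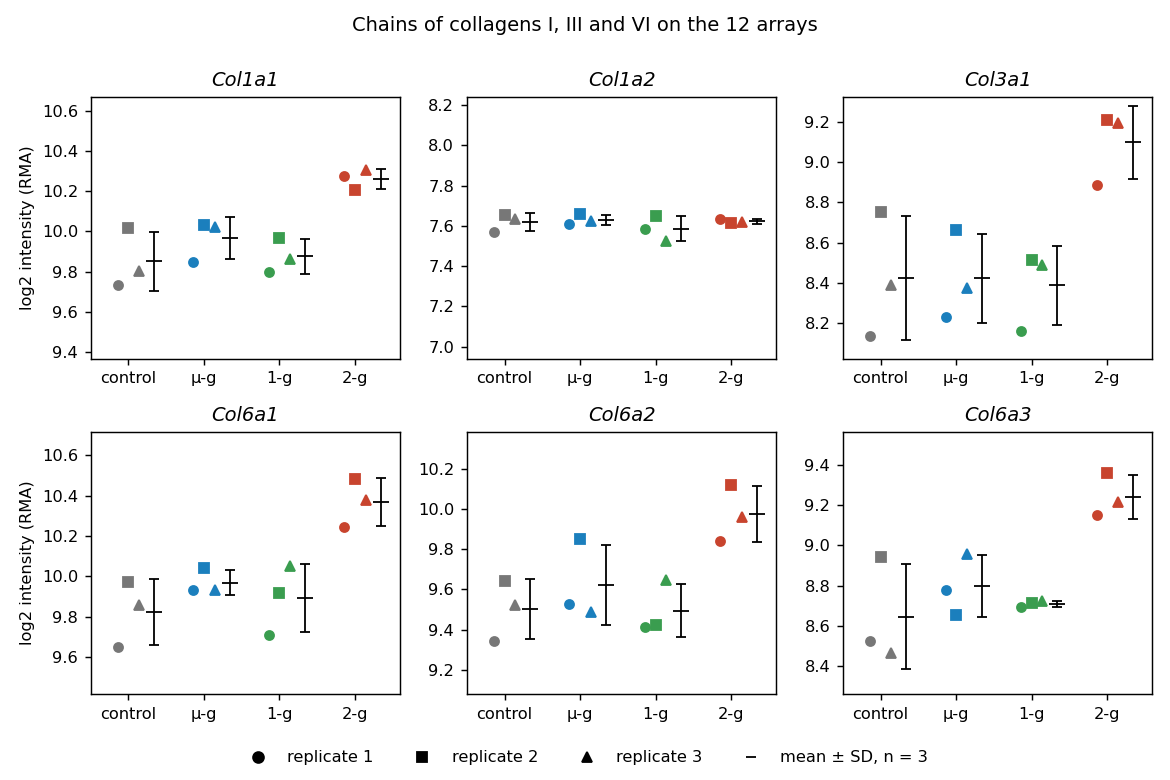
Log2 intensity (vertical axis) of 6 collagen genes on the 12 arrays by group (horizontal axis), with a symbol for each replicate number and the mean ± SD of 3 arrays beside them. Every panel spans the same height. The 2-g arrays of Col1a1, Col3a1, Col6a1 and Col6a3 lie above all other arrays, 2-g replicate 1 of Col6a2 lies just below μ-g replicate 2, and Col1a2 is level between 7.52 and 7.66.

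Collagen VI split into its classical chains, which rose, and its further chains, which did not pass. Col6a1, Col6a2 and Col6a3 code for the chains of the classical collagen VI heterotrimer. Col6a3, the longest of them, lay at 8.53, 8.94 and 8.47 in control, 8.78, 8.66 and 8.96 at μ-g, 8.70, 8.72 and 8.72 at 1-g, and 9.15, 9.36 and 9.21 at 2-g. Its 1-g arrays were nearly level, with an SD of 0.014, and its control arrays spread most, with an SD of 0.26. Col6a3 differed by 0.59 ± 0.11 (SE) on the log2 scale in set 2, or 1.51-fold, with an adjusted p of limma of 0.0179, and by 0.53 ± 0.11 in 2-g v.s. 1-g with 0.033.

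Col6a1 lay at 9.65, 9.97 and 9.86 in control, 9.93, 10.04 and 9.93 at μ-g, 9.71, 9.92 and 10.05 at 1-g, and 10.25, 10.49 and 10.38 at 2-g. The log2 fold change was 0.55 ± 0.10 (SE) in set 2, or 1.46-fold, with an adjusted p of limma of 0.0143, and 0.48 ± 0.10 in 2-g v.s. 1-g with 0.0276. Col6a2 lay at 9.34, 9.64 and 9.52 in control, 9.53, 9.85 and 9.49 at μ-g, 9.42, 9.42 and 9.64 at 1-g, and 9.84, 10.12 and 9.96 at 2-g. Only for Col6a2 among the 5 genes did a 2-g array touch another group, since 9.84 at 2-g replicate 1 lay below 9.85 at μ-g replicate 2. Col6a2 differed by 0.47 ± 0.11 on the log2 scale in set 2, or 1.38-fold, with an adjusted p of limma of 0.0432, and by 0.48 ± 0.11 in 2-g v.s. 1-g with 0.0471.

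The further chains Col6a4, Col6a5 and Col6a6 had ranges of group means of 0.09, 0.12 and 0.05 on the log2 scale, of which that of Col6a6 was the smallest among the collagen VI genes. None of the 12 arrays exceeded 6.56 for Col6a4, 6.69 for Col6a5 or 7.36 for Col6a6, all of which lie below the median level of all genes. Their log2 fold changes in set 2 were −0.08, −0.05 and −0.04. The further clusters of Col6a5 and Col6a6 did not pass in any comparison either.

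By limma's F test over the 4 groups, 3 of the 44 genes differed, Col6a1 with an adjusted p of 0.0293, Col1a1 with 0.0345 and Col6a3 with 0.0378, where 3.15% of all genes did. Col3a1 with an adjusted p of 0.0546 and Col6a2 with 0.0712 did not pass it.

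The starts of these genes are shown to let their promoter windows be compared, since Col6a1 and Col6a2 are neighbours on chromosome 10 and rose together with Col6a3 and Col3a1 of chromosome 1, whereas Col1a2 did not pass. The windows reach from 250 bases before to 50 bases after the start of transcription, 5′ to 3′ on the strand of the gene, from RefSeq on GRCm38.p6. They lie at chr1:45311288-45311587 (plus strand) for Col3a1, chr6:4505368-4505667 (plus strand) for Col1a2, chr10:76725995-76726294 (minus strand) for Col6a1, chr10:76623581-76623880 (minus strand) for Col6a2 and chr1:90843922-90844221 (minus strand) for Col6a3. Capitals mark every match on either strand to 4 short motifs, the common core of the hypoxia response element, ACGTG, the CCAAT box, the GC box, which reads GGGCGG, and the TATA box, which reads TATAAA.
Col3a1: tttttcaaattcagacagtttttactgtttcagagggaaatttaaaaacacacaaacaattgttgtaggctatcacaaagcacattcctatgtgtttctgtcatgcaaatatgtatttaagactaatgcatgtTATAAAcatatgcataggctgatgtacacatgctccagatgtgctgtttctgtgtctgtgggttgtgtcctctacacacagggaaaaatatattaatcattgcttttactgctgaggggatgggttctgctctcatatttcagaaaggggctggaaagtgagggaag
Col1a2: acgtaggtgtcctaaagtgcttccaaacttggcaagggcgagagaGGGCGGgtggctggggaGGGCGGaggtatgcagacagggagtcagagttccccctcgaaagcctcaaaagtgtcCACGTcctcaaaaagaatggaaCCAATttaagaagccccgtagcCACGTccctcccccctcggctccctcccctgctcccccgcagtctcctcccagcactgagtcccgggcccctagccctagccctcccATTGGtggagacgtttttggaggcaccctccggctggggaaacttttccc
Col6a1: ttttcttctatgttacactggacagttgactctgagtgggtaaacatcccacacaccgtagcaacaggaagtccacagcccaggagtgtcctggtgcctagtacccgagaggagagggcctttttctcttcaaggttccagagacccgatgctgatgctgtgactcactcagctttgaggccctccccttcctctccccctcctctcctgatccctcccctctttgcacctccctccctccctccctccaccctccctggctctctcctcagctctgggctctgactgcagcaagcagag
Col6a2: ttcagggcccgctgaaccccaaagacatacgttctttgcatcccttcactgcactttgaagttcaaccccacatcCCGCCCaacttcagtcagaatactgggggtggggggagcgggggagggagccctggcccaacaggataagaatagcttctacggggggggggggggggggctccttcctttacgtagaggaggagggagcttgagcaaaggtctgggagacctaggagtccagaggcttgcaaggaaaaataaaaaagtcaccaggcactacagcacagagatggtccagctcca
Col6a3: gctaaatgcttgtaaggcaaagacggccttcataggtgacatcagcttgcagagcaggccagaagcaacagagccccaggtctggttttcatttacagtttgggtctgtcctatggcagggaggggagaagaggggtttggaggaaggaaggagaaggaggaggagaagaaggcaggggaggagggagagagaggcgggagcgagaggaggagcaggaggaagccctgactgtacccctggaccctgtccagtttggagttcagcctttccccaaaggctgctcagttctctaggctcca

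The window of Col3a1 holds TATAAA, and that of Col6a2 holds GGGCGG as its reverse complement. The table has a further window of Col6a2, not printed here, at chr10:76623355-76623654, which holds 3 matches to the GC box against 1 in the window shown. The windows of Col6a1 and Col6a3 hold none of the 4 motifs. That of Col1a2 holds 2 matches to ACGTG, 2 to the CCAAT box and 2 to the GC box. Of the 44 genes, 35 have a window in the table, with 38 windows in all, and Col1a1, Col2a1, Col4a3, Col5a2, Col9a3, Col12a1, Col14a1, Col22a1 and Col26a1 have none. GGGCGG stood in 23 of the 38 windows and in 35.7% of all 32851 windows of the same length, CCAAT in 13 of 38 and 37.4%, ACGTG in 5 of 38 and 19.6%, and TATAAA in 5 of 38 and 13.6%. None of these motifs contains another, and a match is a description of the letters, not a binding site.

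The other 9 fibrillar genes did not pass in any comparison. All 11 fibrillar genes had a higher mean at 2-g than at 1-g, from 0.01 to 0.71 on the log2 scale with a median of 0.08, against a median of −0.02 over all genes, and 2 of the 11 passed. In set 2, 8 of the 11 had a higher mean at 2-g, and the median was 0.12 against −0.0028 over all genes. The 2-g mean was the highest of the 4 groups for 7 of the 11, namely Col1a1, Col2a1, Col3a1, Col5a1, Col5a2, Col5a3 and Col11a1, and the lowest for 0. The 1-g mean was the lowest for 8 of them. However, 1-g replicate 3 lay low, with a median deviation from its group mean of −0.09 over the collagen genes against −0.02 over all genes. In 2-g v.s. 1-g, Col11a2 and Col27a1 were higher only between replicates 3, by 0.11 and 0.16. Col24a1 differed by 0.01, −0.08 and 0.10 for replicates 1 to 3. Col1a2 and Col5a3 were lower between replicates 2, and the other fibrillar genes were higher for every number. The part of 1-g replicate 3 in these means was not tested. Col5a1, Col5a2 and Col5a3, the chains of collagen V, which regulates the width of collagen I fibrils, had log2 fold changes in 2-g v.s. 1-g of 0.17, 0.12 and 0.09, and none passed. Col11a1, of the related collagen XI, differed by 0.14 ± 0.04 (SE) in set 2 and did not pass. Col2a1, the main collagen of cartilage, had a range of group means of 0.08.

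**Figure D2:**
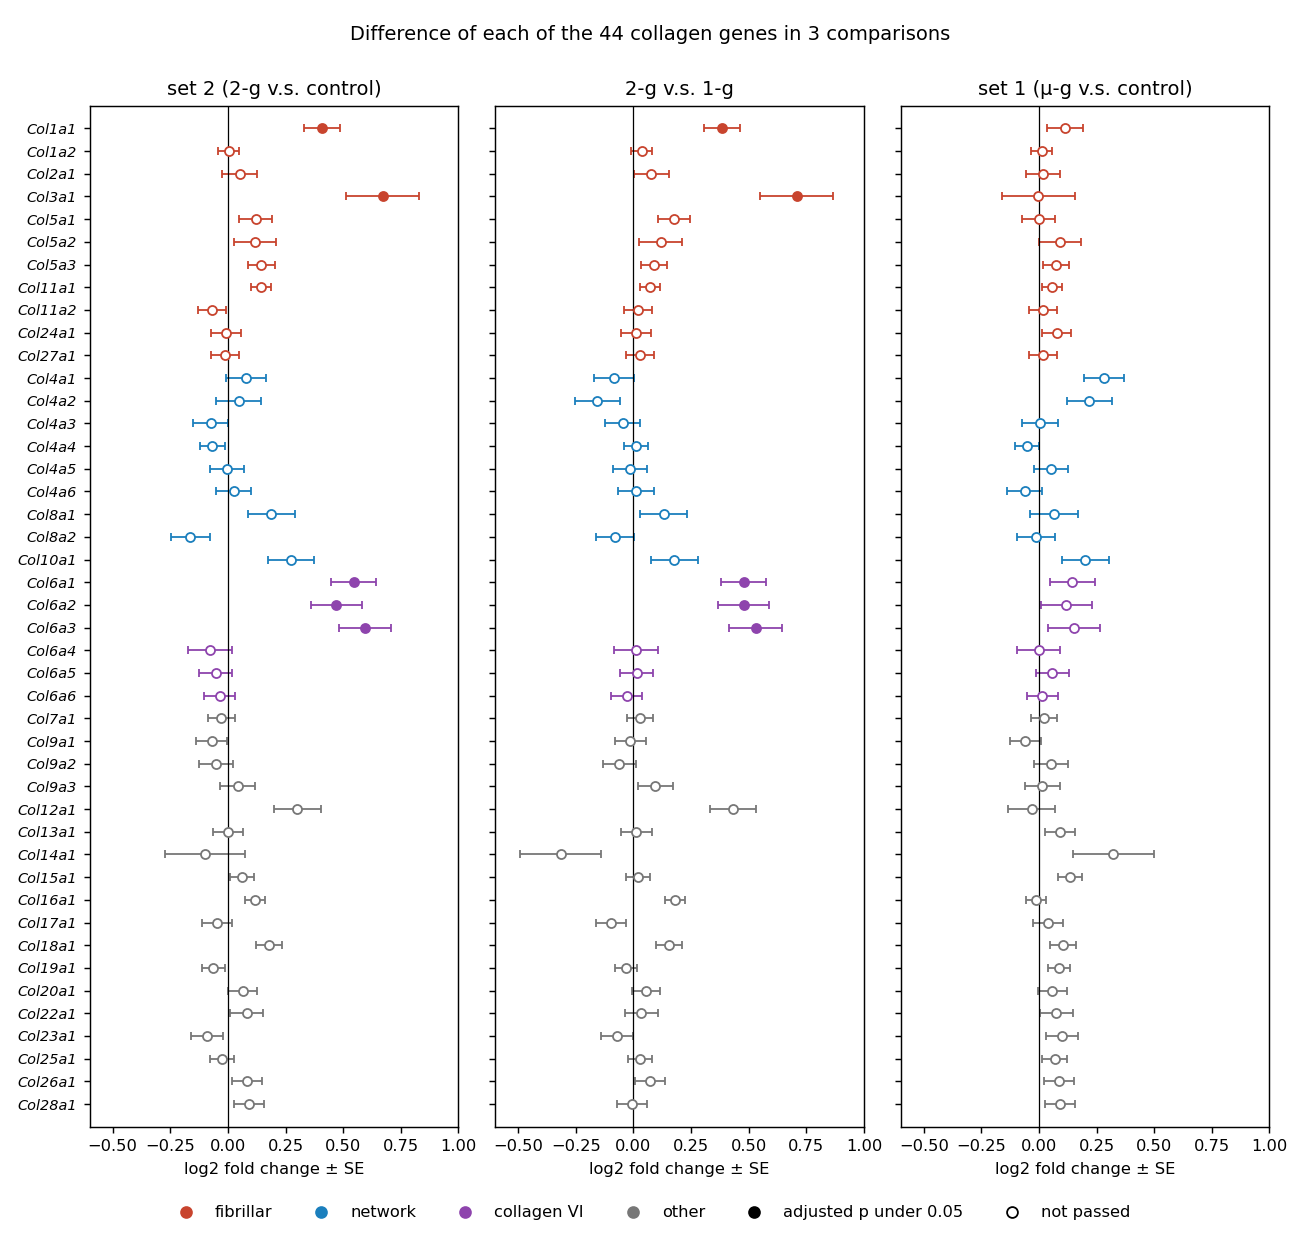
Log2 fold change ± SE (horizontal axis) of each of the 44 collagen genes (vertical axis, grouped by type and colour) in set 2, in 2-g v.s. 1-g and in set 1, with filled points for an adjusted p of limma under 0.05. Filled points are Col1a1, Col3a1, Col6a1, Col6a2 and Col6a3 in set 2 and in 2-g v.s. 1-g, and there are 0 in set 1, where Col14a1, Col4a1 and Col4a2 lie farthest to the right.

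In set 4, which compares μ-g with 2-g at the same field, Col3a1 was the only collagen gene that passed, with log2 levels at μ-g below all those at 2-g. It fell by 0.67 ± 0.16 (SE) on the log2 scale, or 1.60-fold lower at μ-g, with an adjusted p of limma of 0.0447. That makes 1 of 44 that fell, where 1.49% of all genes fell, and 0 of 44 that rose, where 1.38% did. Col6a1 with −0.40 ± 0.10, Col6a3 with −0.44 ± 0.11 and Col1a1 with −0.29 ± 0.08 had μ-g arrays that all lay below the 2-g arrays. Their adjusted p of limma were 0.0512, 0.0614 and 0.0671, so they did not pass. The μ-g arrays of Col11a1, Col12a1 and Col16a1 also all lay below, and those of Col19a1, Col4a5 and Col6a5 all lay above. The share of all genes whose arrays separate so was not counted in any comparison. Set 4 shares its 2-g arrays with set 2 and its μ-g arrays with set 1.

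Same-numbered arrays of the groups compared in set 2, set 4 and 2-g v.s. 1-g deviated from their group means together, so that the replicate number was also taken as a block (a paired analysis). With the replicate block, set 4 gave 6 of 44 collagen genes that fell, where 3.9% of all genes fell, and 2 that rose, where 5.28% did. Those that fell were Col3a1 with an adjusted p of limma of 0.000298, Col6a1 with 0.00385, Col1a1 with 0.0176, Col12a1 with 0.0207, Col6a2 with 0.0283 and Col6a3 with 0.0315. Those that rose were Col14a1 with 0.00143 and Col4a1 with 0.0339. With the replicate block, 2-g v.s. 1-g gave 7 that rose, where 3.21% of all genes did, since Col12a1 with an adjusted p of 0.00718 and Col16a1 with 0.0258 joined the 5, and 1 that fell, Col14a1 with 0.00768, where 4.36% did. In set 2 the block gave 6 that rose, where 5.06% did, with Col12a1 at 0.0314 added, and 0 that fell, where 4.32% did.

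The calls depended on single arrays. In a fit of only the 6 arrays compared, 0 of the 5 genes passed in set 2, with adjusted p of limma from 0.0545 to 0.0894, and 3 passed in 2-g v.s. 1-g. In set 2, 0 of the 5 genes passed without 2-g replicate 3, without control replicate 1 or without control replicate 3, and only Col1a1 passed without 2-g replicate 2. Over all genes these fits called 145, 204, 159 and 294, where 335 rose and 285 fell with all arrays, so that fewer genes passed over the whole table too. The log2 fold changes stayed between 0.35 and 0.83 over all 12 such fits and the 5 genes, with adjusted p of limma from 0.00196 to 0.168. In 2-g v.s. 1-g, 0 passed without 1-g replicate 1, 2-g replicate 2 or 2-g replicate 3, 1 without 1-g replicate 2, 2 without 1-g replicate 3 (Col6a1 and Col12a1) or 2-g replicate 1, and 3 without μ-g replicate 1, μ-g replicate 3 or control replicate 3. Over all genes 168, 203 and 178 were called in the fits that left 0 of the 5, where 251 rose and 200 fell with all arrays. In set 4, Col3a1 did not pass without μ-g replicate 1, μ-g replicate 3, 1-g replicate 2, 1-g replicate 3, 2-g replicate 2, 2-g replicate 3 or control replicate 3.

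Among the network-forming collagens none of the 9 passed in any comparison without the replicate block. With the block Col4a1 rose in set 4 with an adjusted p of limma of 0.0339, and also in set 1, as given in the closing section. The largest differences were those of Col4a1, the chain that builds the ubiquitous collagen IV with Col4a2, and of Col10a1, the collagen of hypertrophic cartilage. Col4a1 lay at 8.50, 8.28 and 8.44 in control, 8.85, 8.52 and 8.70 at μ-g, 8.60, 8.55 and 8.56 at 1-g, and 8.59, 8.35 and 8.52 at 2-g. All μ-g arrays were above all control arrays, and so were all 1-g arrays, but the share of all genes that separate so was not counted. The log2 fold change in set 1 was 0.28 ± 0.09 (SE) with an adjusted p of limma of 0.156. Its partner Col4a2 lay at 8.25, 8.13 and 8.25 in control, 8.55, 8.24 and 8.49 at μ-g, 8.47, 8.38 and 8.39 at 1-g, and 8.44, 8.04 and 8.29 at 2-g. The order of the group means was the same for both chains, μ-g, 1-g, 2-g and control from high to low, and neighbours in this order overlapped. In set 1 Col4a2 had a log2 fold change of 0.22 ± 0.10 with an adjusted p of limma of 0.345.

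Col4a1 and Col4a2 start head to head, and their promoter windows on GRCm38.p6 share 78 bases at chr8:11312777-11312854. This stretch is shown, on the strand of Col4a2, because both chains are read from it in opposite directions, with GGGCGG in capitals.
Col4a1 and Col4a2, shared: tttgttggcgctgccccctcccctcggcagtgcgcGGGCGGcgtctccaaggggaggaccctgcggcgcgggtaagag

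Col10a1 had its highest mean at 2-g, 7.53 ± 0.20 (SD, n = 3), and its lowest in control, 7.26 ± 0.19, and its log2 fold change in set 2 was 0.27 ± 0.10 (SE) with an adjusted p of limma of 0.183. Col8a1, a short-chain collagen of the vessel wall and the eye, had a range of group means of 0.19 on the log2 scale. The further collagen IV chains Col4a3, Col4a4, Col4a5 and Col4a6 had ranges of 0.08, 0.08, 0.06 and 0.09, with Col4a5 the smallest of the network group.

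**Figure D3:**
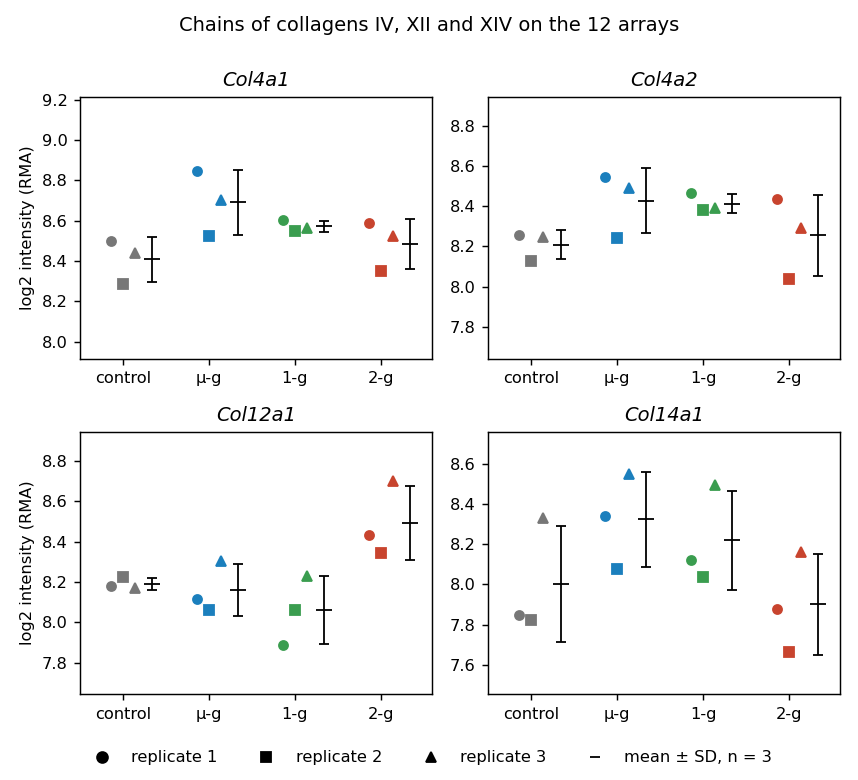
Log2 intensity (vertical axis) of Col4a1, Col4a2, Col12a1 and Col14a1 on the 12 arrays by group (horizontal axis), with a symbol for each replicate number and the mean ± SD of 3 arrays. Every panel spans the same height. In Col14a1 replicate 3 is the highest and replicate 2 the lowest array of every group, and in Col12a1 all 2-g arrays lie above 8.34.

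Of the 18 other types, none passed in the main fit without the block. Under some alternatives without the block Col12a1 rose in 2-g v.s. 1-g, and so did Col16a1 among genes above the median level. The largest ranges belonged to Col12a1 and Col14a1, both fibril-associated collagens that sit on the surface of collagen I fibrils, with the 2-g mean the highest of the 4 groups for Col12a1 and the lowest for Col14a1. Col12a1 lay at 8.18, 8.23 and 8.17 in control, 8.11, 8.06 and 8.30 at μ-g, 7.89, 8.06 and 8.23 at 1-g, and 8.43, 8.35 and 8.70 at 2-g. Its 2-g arrays were above all others, with a log2 fold change of 0.30 ± 0.10 (SE) and an adjusted p of limma of 0.144 in set 2 and of 0.43 ± 0.10 and 0.05001 in 2-g v.s. 1-g. Col14a1 lay at 7.85, 7.82 and 8.33 in control, 8.34, 8.08 and 8.55 at μ-g, 8.12, 8.04 and 8.50 at 1-g, and 7.88, 7.66 and 8.16 at 2-g. Its spread within a group, with SDs from 0.24 to 0.29, was wide, and the groups overlapped.

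Between arrays of the same number the difference of Col14a1 varied less, with an SD of 0.04 over the differences between μ-g and 2-g. For replicates 1, 2 and 3 it was 0.46, 0.41 and 0.39 between μ-g and 2-g and −0.24, −0.38 and −0.33 between 2-g and 1-g. Without the block the log2 fold change of Col14a1 was 0.42 ± 0.17 (SE) in set 4 with an adjusted p of limma of 0.242, and with the block the SE was 0.06. For Col3a1 in 2-g v.s. 1-g the differences of replicates 1 to 3 were 0.72, 0.70 and 0.70. Col12a1 differed by −0.32, −0.28 and −0.40 between μ-g and 2-g.

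**Figure D4:**
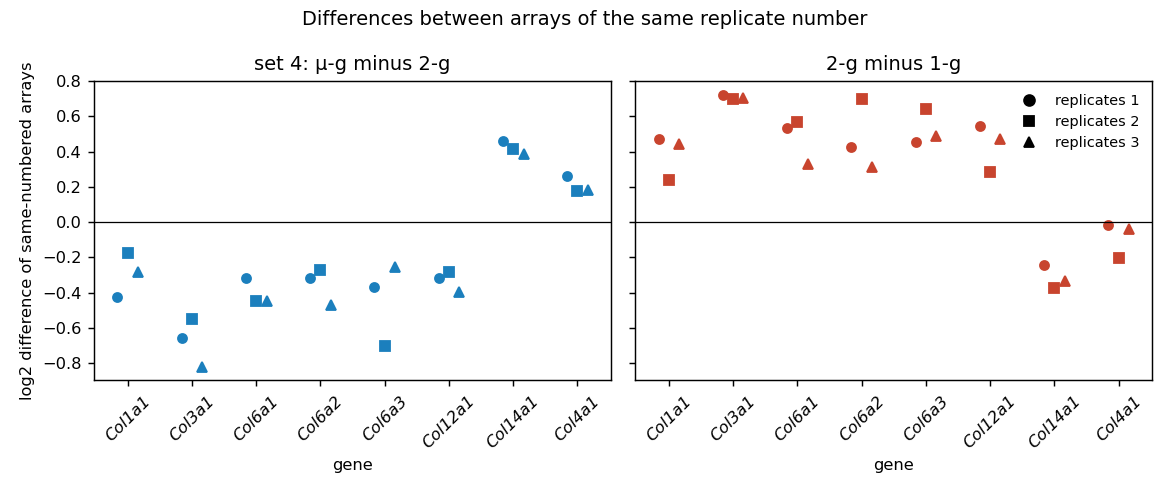
Log2 difference (vertical axis) between the arrays of the same replicate number for 8 collagen genes (horizontal axis), μ-g minus 2-g on the left and 2-g minus 1-g on the right, with a symbol for each number. On the left the 3 differences of Col14a1 lie between 0.39 and 0.46 and those of Col3a1 between −0.82 and −0.55. No gene shown has points on both sides of 0 in either panel. The genes shown are those that passed between μ-g and 2-g with the replicate block. Points of the same sign on the left therefore follow from this choice of genes, and the right panel shares the 2-g arrays.

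Col16a1, another fibril-associated chain, lay between 8.07 and 8.10 at 2-g and between 7.86 and 8.02 on all other arrays. Its log2 fold change in 2-g v.s. 1-g was 0.18 ± 0.04 (SE) with an adjusted p of limma of 0.0584. Col18a1, a basement membrane collagen on chromosome 10 like Col6a1 and Col6a2, had a log2 fold change of 0.18 ± 0.06 in set 2 and did not pass. The smallest range of group means among the other types was that of Col20a1, 0.06. Of the 18, 16 had a range under 0.2.

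Over all 44 genes the median range of group means was 0.12 on the log2 scale, against 0.12 over all genes. Of the 44, 7 had a range over 0.3, namely Col1a1, Col3a1, Col6a1, Col6a2, Col6a3, Col12a1 and Col14a1, and 34 had a range under 0.2. Among all 19938 genes, 1611 had a range over 0.3 and 15440 had a range under 0.2. The 2-g mean was the highest for 19 of the 44 and the μ-g mean for 19, while the lowest mean fell to 1-g for 18, to control for 15, to 2-g for 10 and to μ-g for 1.

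At an unadjusted p of limma under 0.05, 11 of the 44 genes were higher in set 2, where 8.65% of all genes were, and 0 were lower, where 8.1% were. In 2-g v.s. 1-g, 9 were higher, against 5.3% of all genes, and 0 lower, against 9.99%. In set 4, 4 were higher, against 11.4%, and 7 lower, against 5.75%. In set 1, 3 were higher, namely Col4a1, Col4a2 and Col15a1, against 9.94% of all genes, and 0 lower, against 4.1%. In set 3 there were 0 in either direction, against 7.79% higher and 3.03% lower, and in μ-g v.s. 1-g 2 were higher, Col19a1 and Col25a1, against 1.37%, and 0 lower, against 0.938%. In μ-g v.s. 1-g, 39 of the 44 had a higher mean at μ-g, with a median of 0.07 against 0.0056 over all genes, and the largest was 0.13. There 1-g replicate 3 lay below its group mean for 37 of the 44 genes, with a median deviation of −0.09 against −0.02 over all genes, and the part of this array in the shift was not tested.

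Some genes of collagen synthesis, mainly hydroxylases of the chains, also differed between the groups. Of the 27 measured genes of synthesis and crosslinking, 8 rose and 0 fell in set 2, where 1.68% of all genes rose and 1.43% fell. In 2-g v.s. 1-g, 7 rose and 0 fell, against 1.26% and 1%, and in set 4, 8 fell and 0 rose, against 1.49% and 1.38%. The mean over these 27 genes lay between 10.03 and 10.06 on the 2-g arrays and between 9.76 and 9.86 on the other 9. P4ha1 and P4ha2, catalytic subunits of prolyl 4-hydroxylase, which stabilises the triple helix, rose by 0.96 ± 0.11 and 0.95 ± 0.09 (SE) on the log2 scale in set 2, with adjusted p of limma of 0.00253 and 0.00161. P4ha3, a further such subunit, rose by 0.61 ± 0.14 in set 2 with an adjusted p of limma of 0.0326. It did not pass in 2-g v.s. 1-g, with 0.4965, or in set 4, with 0.234. Plod1 and Plod2, lysyl hydroxylases that prepare collagen for crosslinking, rose by 0.39 ± 0.07 and 0.67 ± 0.09. Creb3l1, which also rose in set 2, is a transcription factor and no enzyme. Of the lysyl oxidases measured here, which form the crosslinks, none passed in set 2. Their adjusted p of limma were 0.0928 for Lox, 0.287 for Loxl1, 0.154 for Loxl3 and 0.250 for Loxl4. Lox fell by 0.36 ± 0.08 in set 4 with an adjusted p of limma of 0.0455. Loxl2, which the paper lists among its genes of set 2, was not among the 27 measured genes and was not tested here. In set 1 only Mia3, named after its value was seen, which helps to export the large procollagens, rose, by 0.32 ± 0.07, and none of the 27 passed in set 3. With the replicate block, 13 of the 27 rose in set 2, where 5.06% of all genes did, among them Lox, Loxl1 and Loxl3. In set 3 with the block P4ha3 rose with an adjusted p of limma of 0.0162 and P3h3 fell with 0.0414, where 205 of all 19938 genes rose and 147 fell.

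Of 10 genes of collagen breakdown, Ctsk, the collagen-cleaving protease cathepsin K, fell by 0.50 ± 0.10 (SE) on the log2 scale in set 2 with an adjusted p of limma of 0.0179, and no other passed. There 1.68% of all genes rose and 1.43% fell. Mmp13 differed the other way from Ctsk, by 0.60 ± 0.19 in set 2 and −0.64 ± 0.19 in set 4. Its adjusted p of limma were 0.117 and 0.101, so it did not pass. With the replicate block Mmp13 rose in set 2 with 0.0109 and fell in set 4 with 0.0089. The paper lists it among its genes of set 2. In set 4, Ctsk, Mmp2 and Mmp9 rose and Timp3, an inhibitor of such proteases, fell, where 1.38% of all genes rose and 1.49% fell. In 2-g v.s. 1-g Ctsk fell and Timp3 rose, where 1% of all genes fell and 1.26% rose. None of 9 collagen receptors, such as Itga1 and Ddr2, and none of 17 matrix partners, such as Fn1 and Sparc, passed in any comparison without the block. At an unadjusted p of limma under 0.05 in set 2, 3 of the 9 receptors and 7 of the 17 partners were higher, where 8.65% of all genes were. With the replicate block, 3 receptors and 3 partners rose in set 2, 1 receptor rose and 2 receptors and 2 partners fell in set 4, and 1 receptor and 2 partners rose in 2-g v.s. 1-g. In set 3 with the block the partner Dcn, the small proteoglycan decorin, fell with an adjusted p of limma of 0.0273, where 147 of all 19938 genes fell. The block gave 2 breakdown genes that rose and 2 that fell in set 2, 3 that rose and 3 that fell in set 4, and 2 that rose and 2 that fell in 2-g v.s. 1-g. Of all genes, 5.06% rose and 4.32% fell with the block in set 2, 5.28% and 3.9% in set 4, and 3.21% and 4.36% in 2-g v.s. 1-g.

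Markers of other cells were read beside the rise of the 5 collagen genes at 2-g. Of 6 cartilage markers only Sox9 passed, which rose by 0.37 ± 0.08 (SE) in 2-g v.s. 1-g and fell by 0.43 ± 0.08 in set 4, and the mean over the list lay at 6.72 to 6.81 at 2-g and at 6.67 to 6.78 on the other arrays. Of 7 macrophage markers only Cd68, a lysosomal protein, passed, which fell by 0.66 ± 0.11 in 2-g v.s. 1-g and rose by 0.55 ± 0.11 in set 4, while Ptprc at 5.52 to 5.83 and Adgre1 at 5.37 to 5.57 lay among the low values of the table, and the list mean was 7.07 to 7.14 at 2-g and 7.13 to 7.29 elsewhere. None of 5 endothelial markers passed, with list means of 6.23 to 6.27 at 2-g and 6.24 to 6.42 elsewhere. Of all genes, 1.26% rose and 1% fell in 2-g v.s. 1-g, and 1.38% rose and 1.49% fell in set 4. With the replicate block Sox9 also rose and Cd68 also fell in set 2. Csf1r, the receptor of the macrophage growth factor, fell with the block in set 3, where 147 of all 19938 genes did. The part of other cells in the collagen values was not tested.

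**Figure D5:**
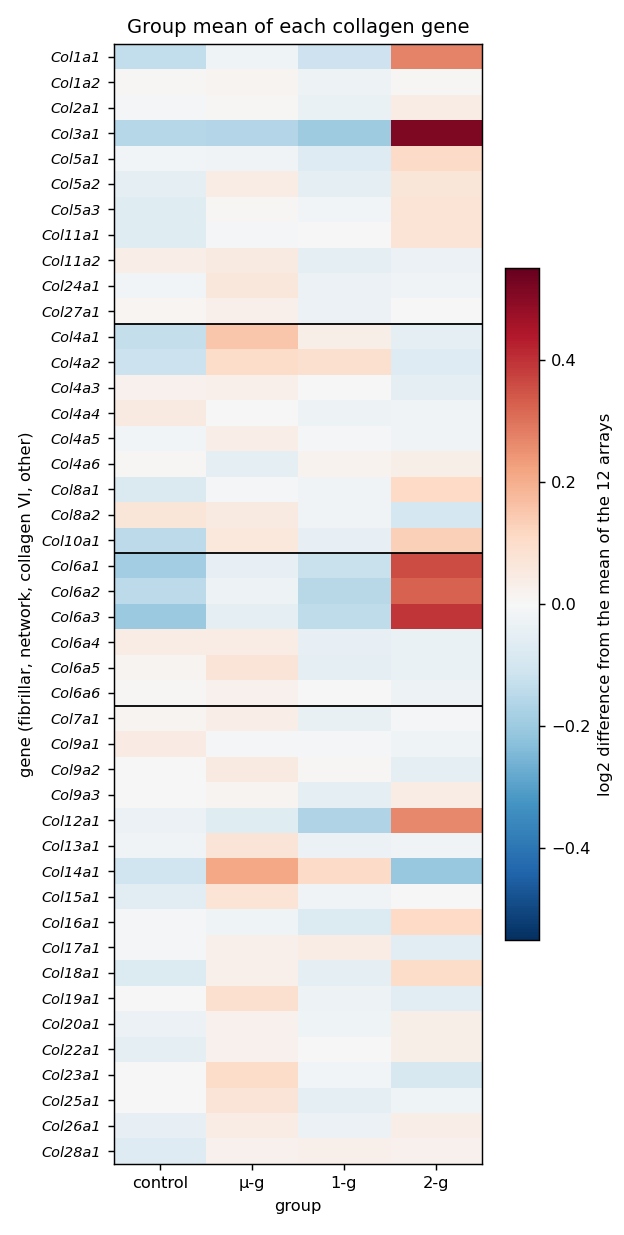
Mean of each group (horizontal axis) for each of the 44 collagen genes (vertical axis, lines between the fibrillar, network, collagen VI and other genes), as the log2 difference from the mean of that gene over the 12 arrays (colour). The strongest colours are those of Col3a1, Col6a1, Col6a2 and Col6a3 at 2-g, and most other genes stay near 0. A range of group means under 0.2 is found for 34 of the 44, and for 15440 of all 19938 genes.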

How the data were processed

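Affymetrix Mouse Gene 1.0 ST arrays measured total RNA of MLO-Y4 cells, 3 arrays in each of the 4 groups. The authors normalized the intensities by RMA and deposited log2 values of 28856 transcript clusters, with no version of RMA named in the sources used here. Probes of similar chains may share signal, and raw intensities were not used here. Clusters were named through the platform annotation and current mouse symbols, which gave 19938 genes from clusters with 1 symbol. Group means were estimated for every cluster over the 12 arrays with limma 3.58.1 in R 4.3.3 (8 residual and 3.90 prior degrees of freedom), and p-values were adjusted over the 19938 genes. The script was tested on simulated data. The text names the genes that passed, their partner chains, those past 1.5-fold at an unadjusted p under 0.05, and those of the largest and smallest range in each type. The members, lists and tests were chosen with earlier results of these data known.

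Arrays of the same replicate number had deviations from the group means that correlated by 0.23 to 0.499 in every comparison except set 1, where replicates 3 correlated by 0.0179. The pairing rests on these values, since no source used here says what the numbers stand for. Values of the block in set 1 are given in the closing section only.

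The alternatives were the 6 arrays of the compared groups alone, the replicate block, genes above the median level, arrays centred on their medians, quantile normalization, an intensity trend with a robust prior, an unadjusted p with a 1.5-fold limit after the methods of the paper, further clusters of Col6a5 and Col6a6, each array left out, and, added after the data were seen, a spread fitted on the 19938 genes alone.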

Additional observations from a re-analysis of the deposited data

How the results depend on the processing

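No log2 fold change that passed in any fit changed its sign under an alternative. The counts of collagen genes were less stable than the fold changes. With only the 6 arrays of the compared groups, 0 rose in set 2, 2 fell in set 4 and 3 rose in 2-g v.s. 1-g. With the replicate block (a paired analysis), 2 rose in set 1, Col14a1 with an adjusted p of limma of 0.0153 and Col4a1 with 0.0175, while 627 of all genes rose. Of the lists in set 1, the block gave 3 that rose and 3 that fell among the 27 synthesis genes, where 627 of all 19938 genes rose and 311 fell. Mmp2 with an adjusted p of limma of 0.0466, Itga1 with 0.0362 and Ddr2 with 0.0337 rose there, and Dcn with 0.0138 and Csf1r with 0.036 fell. The block also gave 2 that rose and 6 that fell in set 4, 1 that fell in 2-g v.s. 1-g, and 8 by the F test, where 11.7% of all genes passed, and 0 in set 3 and in μ-g v.s. 1-g. Of the 264 fold changes of single genes, 13 passed with the block that did not without it and 0 ceased to. Among genes above the median level, 4 fell in set 4 and 5 passed the F test. In 2-g v.s. 1-g, 7 rose among them, with Col12a1 and Col16a1 added. There 6 rose, with Col12a1 added, where the prior was robust and followed the intensity. The same 6 rose with the spread fitted on the genes with 1 symbol alone. After quantile normalization 4 rose in set 2, without Col6a2, and in 2-g v.s. 1-g Col12a1 passed in place of Col6a2. In set 4, 3 fell after quantile normalization, 2 after centring each array on its median, 2 where the prior was robust and followed the intensity, and 2 with the spread fitted on the genes with 1 symbol alone, a setting chosen after seeing the data. With an unadjusted p and the 1.5-fold limit, 2 were higher in set 2, Col3a1 and Col6a3, and 1 in 2-g v.s. 1-g, Col3a1. With 1 array left out at a time, 0 to 5 rose in set 2, 0 to 4 fell in set 4, 0 to 5 rose in 2-g v.s. 1-g, and 0 to 5 passed the F test. The cause of these differences was not tested. Genes near the low values of the table have little signal over background, so that a change of Col6a4, Col6a5 or Col6a6 may not be seen on these arrays.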
